A study of Mus musculus with 6 samples.

Results

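Transcript levels of 10 lysosomal genes were followed in neutrophils harvested from mouse bone marrow: 6 cathepsin genes (Ctsd, Ctsb, Ctss, Ctsz, Ctsh and Ctsl), 3 membrane protein genes (Lamp1, Lamp2 and Cd63) and the hydrolase gene Gusb. They were taken by symbol, with earlier results of these data known, from the 47561 rows of the deposited tables, where each symbol had 1 row, and all 10 were among the 15778 genes that passed the filter on low counts. There were 3 bone marrow samples labelled CUMS, for chronic unpredictable mild stress, in which mice met a changing series of stressors for 4 weeks, and 3 labelled Control; all 6 are labelled male and wild type (WT). Age, strain, how the neutrophils were isolated and how many animals gave each sample are not stated in the labels, so p-values measure the spread between these libraries, which may be partly technical.

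Lysosomes are acidic compartments in which proteases, glycosidases, lipases and sulfatases break down material taken up from outside or delivered by autophagy. Cathepsins are their main proteases. They are made as inactive precursors and mature in the acidic lumen, while the heavily glycosylated Lamp proteins line the membrane. In neutrophils part of this machinery is stored in the azurophil (primary) granules, whose membrane is marked in human cells by CD63 and whose contents include cathepsin D and beta-glucuronidase.

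The files hold whole numbers taken as estimated counts, which summed to between 85799370 and 109757558 in CUMS and between 78845457 and 103483602 in Control. Multiples of 4 were over-represented among low values, from which about 4 estimated counts per read pair were assumed. On that assumption, which was not tested, the depth would be 21449842 to 27439390 read pairs in CUMS and 19711364 to 25870900 in Control. All 7 neutrophil markers were above 1 CPM in at least 1 library (CPM, a count scaled to library size with edgeR's TMM factors), with summed levels of 57834 to 78603 CPM in CUMS and 70352 to 80617 CPM in Control. Most of each sum was S100a9 and S100a8, and none of the 7 markers passed edgeR's test. CUMS replicate 1 stood apart from the other CUMS libraries in the alarmin gene S100a8, at 19775 CPM against 11997 and 13583 CPM in CUMS replicates 2 and 3, and each fit was also run without it. Summed erythroid markers were 2516 to 3002 CPM in CUMS and 1303 to 1871 CPM in Control, and 7 of the 10 markers rose. Summed B cell, plasma cell, eosinophil, progenitor and stroma markers were also higher in every CUMS library than in any Control library, basophil and mast cell markers were lower, and dendritic, T and NK, and megakaryocyte markers overlapped (exact two-sided permutation test, p = 0.1 for each list that did not overlap, the smallest that 3 against 3 libraries allow). Of single markers tested, 2 of 5 eosinophil and 2 of 4 progenitor markers rose. No B cell, plasma cell, stroma, or basophil and mast cell marker passed. Most of the progenitor sum was Kit, which overlapped at 29.8 to 34.0 CPM in CUMS and 28.8 to 33.0 CPM in Control. In bulk samples, fewer cells of a type and less RNA per cell cannot be told apart.

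Among the 10 genes, Ctsd rose, Ctsb fell, and the other 8 did not pass the test. The changes were small. The median log2 fold change was -0.0079 over the 10 genes and -0.0073 over all genes tested, and the range within the set was -0.18 to 0.18. Of all genes tested, 4.5% passed an adjusted p of 0.05 (2.36% higher and 2.14% lower in CUMS), so 2 of 10 is a count too small to set against that share. The libraries of the groups did not overlap for 5 of the 10 genes (Ctsd higher in CUMS, and Ctsb, Ctsz, Ctsh and Lamp2 lower), against 22.9% of all genes tested.

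**Figure D1:**
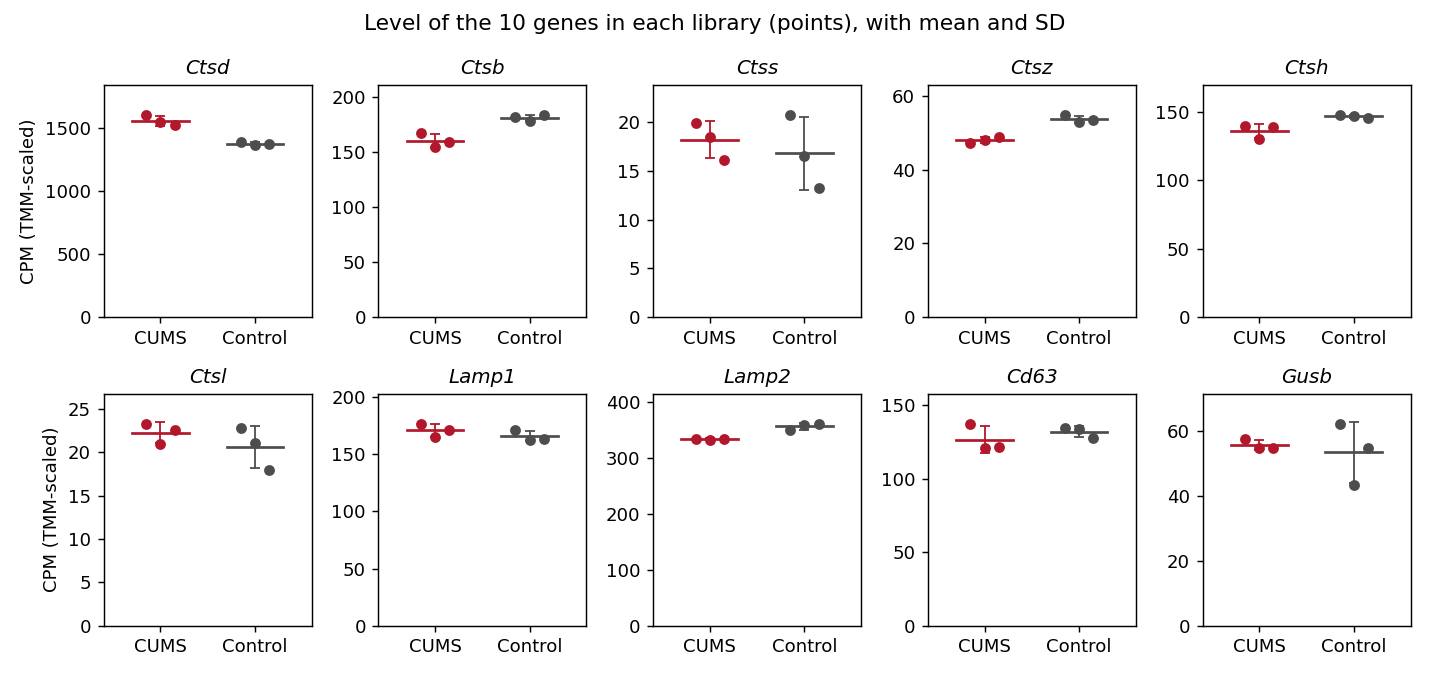
TMM-scaled CPM (vertical axes, each from 0) of the 10 genes in the 3 CUMS libraries (red, left) and the 3 Control libraries (grey, right); points are libraries, horizontal bars are means and whiskers are SD. Ctsd sits between 1520.0 and 1600.0 CPM in CUMS, above all Control libraries, and Ctsb sits between 154 and 167 CPM, below all of them, while Ctss, Ctsl, Lamp1, Cd63 and Gusb overlap.

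Because the promoter of a lysosomal gene can carry the E-box CACGTG, the core of the CLEAR element bound by the transcription factors Tfeb and Tfe3, the windows from 250 bases before to 50 bases after the RefSeq start (GRCm38.p6) were read for the 8 genes matched in the promoter table; Ctsb and Ctsh had no entry. CACGTG reads the same on both strands, as do TCACGTGA and that run with a further G before and C after it, the CLEAR consensus, so the 3 motifs are nested. The core was present in 3 of the 8 windows (2 matches in Ctsd, 4 in Lamp1 and 1 in Ctsl) and in 7.15% of all 32851 windows of that length. The longer TCACGTGA was present in 1 of 8, Ctsd, against 0.974% of all windows, and the full consensus in 0 of 8 against 0.326%. The 250 bases upstream of the Ctsd start show both matches, in capitals, 245 and 98 bases before it (chr7:142387828-142388077, minus strand).

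Ctsd upstream: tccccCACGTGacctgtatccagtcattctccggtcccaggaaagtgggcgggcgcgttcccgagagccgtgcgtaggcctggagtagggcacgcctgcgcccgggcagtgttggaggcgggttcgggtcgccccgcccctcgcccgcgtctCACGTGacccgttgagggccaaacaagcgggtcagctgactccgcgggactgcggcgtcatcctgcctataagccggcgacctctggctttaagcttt

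RefSeq's start in this table lies inside the GENCODE M21 gene for Ctsd, Ctsl and Cd63, so their windows hold sequence that GENCODE places within the gene. The Ctsl match lies within the GENCODE gene, as does the Ctsd match at 98 bases, the one with TCACGTGA. The Ctsd match at 245 bases lies outside the gene.

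The matches in Lamp1 lay close together, 61, 45, 28 and 15 bases before the start (first window chr8:13159088-13159117, plus strand), and that of Ctsl lay 236 bases before it (chr13:64370739-64370768, minus strand). Each is shown with 12 bases on either side and the core in capitals, so that the flanks, in which the sites differ, can be compared with those of Ctsd.
Lamp1 at 61 bases: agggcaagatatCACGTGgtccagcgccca
Lamp1 at 45 bases: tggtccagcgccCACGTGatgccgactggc
Lamp1 at 28 bases: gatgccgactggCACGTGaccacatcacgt
Lamp1 at 15 bases: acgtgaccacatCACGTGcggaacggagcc
Ctsl: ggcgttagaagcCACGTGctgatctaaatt

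These matches are letters in a window, not measured sites. Of the 3 genes with a match, Ctsd rose and Lamp1 and Ctsl did not pass the test; of the 5 read without one (Ctss, Ctsz, Gusb, Cd63 and Lamp2), none passed.

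Ctsd encodes cathepsin D, the aspartic protease of the lysosome, and is found on chromosome 7, 142375911 to 142388038, minus strand (GRCm38, with 2 protein-coding transcripts in GENCODE M21; the coordinates of the other genes are from the same annotation). It measured 1600.0, 1542 and 1520.0 CPM in CUMS replicates 1 to 3, against 1385, 1363 and 1375 CPM in Control replicates 1 to 3. All CUMS libraries lay above all Control libraries, and the gap between the groups was wider than the range within either. The means were 1554 ± 41.3 CPM in CUMS and 1374 ± 10.9 CPM in Control (SD, n = 3 each), which is 13.1% higher. On the log2 scale Ctsd rose by 0.18 ± 0.034 (SE), with an adjusted p of 0.0122 (edgeR quasi-likelihood test). The call ended without Control replicate 2 or Control replicate 3 (adjusted p = 0.0696 and 0.0550), and the log2 fold change stayed between 0.16 and 0.20 whichever library was left out. Without CUMS replicate 1, its highest library, it was 0.16 with an adjusted p of 0.0191. Per length of exon sequence, Ctsd was the most abundant of the 10 genes, at 661 ± 17.6 RPKM in CUMS and 585 ± 4.62 RPKM in Control (CPM per kilobase), and it ranked 60 by CPM among all genes tested. Among other contents of azurophil granules, the progenitor-stage genes Mpo and Elane both rose (adjusted p = 0.0095 and 0.0025 with edgeR). They were at 6.95 ± 0.700 and 2.13 ± 0.517 CPM in CUMS, against 3.42 ± 0.852 and 0.454 ± 0.133 CPM in Control (SD, n = 3 each). The azurophil granule genes Ctsg, Cd63 and Gusb did not pass (adjusted p = 0.434, 0.657 and 0.835 with edgeR). Beside the rise of Ctsd, the 14 monocyte and macrophage markers summed to 232 to 238 CPM in CUMS and 207 to 214 CPM in Control. Most of that sum was Csf1r, at 201 ± 1.40 CPM in CUMS and 176 ± 5.72 CPM in Control (log2 fold change 0.19 ± 0.04, adjusted p = 0.0251), the 1 marker that rose of 12 tested. The next most abundant, Adgre1, was at 27.1 ± 2.91 CPM in CUMS and 27.4 ± 3.00 CPM in Control, and Vcam1 had a log2 fold change of -0.55 (adjusted p = 0.965 and 0.234 with edgeR). No marker of that list was at 0 in all libraries, 9 of 14 were under 1 CPM in every library, and the highest value of the complement gene C1qa was 0.534 CPM. The part of other cells in the Ctsd result was not tested. The gene Gm49369 of the annotation shares 808 exonic bases with Ctsd on the same strand. No deposited row carries that name, so its level could not be read, and its part in the Ctsd level was not tested.

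The 5 cysteine cathepsins were mixed in direction: Ctsb fell, Ctsz and Ctsh had fold changes below 0 and Ctss and Ctsl above 0 without passing. Their summed level, most of it Ctsb and Ctsh, was 397, 372 and 385 CPM in CUMS, against 428, 415 and 413 CPM in Control, lower in every CUMS library than in any Control library.

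Ctsb encodes cathepsin B, which cleaves both inside proteins and from their carboxyl end, and is found on chromosome 14, 63122462 to 63145923, plus strand. It measured 167, 154 and 159 CPM in CUMS, against 182, 178 and 183 CPM in Control, with no overlap. The means were 160.0 ± 6.23 CPM in CUMS and 181 ± 2.66 CPM in Control (SD, n = 3 each), and Ctsb fell by 0.18 ± 0.044 (SE) on the log2 scale, a change of -11.6%, with an adjusted p of 0.0409 in edgeR's test. Left-out libraries moved this call more than that of Ctsd: it held without CUMS replicate 1 (adjusted p = 0.0269) and ended without CUMS replicate 2, CUMS replicate 3, Control replicate 1, Control replicate 2 or Control replicate 3 (0.182, 0.181, 0.0952, 0.107 and 0.143). It also ended with no filter on low counts (0.0824). The last 774 bases of Ctsb, at 63145150 to 63145923, are exonic in Ctsb and also in Fdft1, the squalene synthase gene on the opposite strand. Fdft1 measured 12.3, 9.97 and 10.5 CPM in CUMS, against 20.0, 21.6 and 20.8 CPM in Control, and fell by 0.93 ± 0.10 on the log2 scale (adjusted p = 3.5e-04). The change in mean level was -21.0 CPM for Ctsb and -9.90 CPM for Fdft1. Reads of the shared bases cannot be told apart without strand, and their part in the fall of Ctsb was not tested.

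Ctsz encodes cathepsin Z, a carboxypeptidase also called cathepsin X, and lies on chromosome 2 at 174427493 to 174439039 (minus strand). It measured 47.1, 48.0 and 48.8 CPM in CUMS, against 54.8, 52.8 and 53.4 CPM in Control. The groups did not overlap, but the log2 fold change of -0.16 ± 0.05 (SE) missed the threshold (adjusted p = 0.112 in edgeR's test, 0.0833 to 0.264 over the 14 alternatives). Its interval, -0.27 to -0.05 on the log2 scale (95%), leaves out 0, since it is not adjusted for the number of genes.

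Ctsh encodes cathepsin H, an aminopeptidase, and lies on chromosome 9 at 90054152 to 90076089 (plus strand). Its levels were 139.7, 130.4 and 139 CPM in CUMS, against 147, 147 and 146 CPM in Control. Each CUMS library was again below each Control library, with CUMS replicate 2 the lowest. The log2 fold change was -0.11 ± 0.04 (SE, 95% interval -0.20 to -0.01, adjusted p = 0.239 with edgeR).

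Ctss and Ctsl were the least abundant cathepsins of the set and the most variable relative to their means. Ctss encodes cathepsin S, which trims the invariant chain during antigen presentation (chromosome 3, 95526786 to 95556403, plus strand), and measured 19.9, 18.6 and 16.2 CPM in CUMS, against 20.8, 16.5 and 13.3 CPM in Control. Control replicate 1 was the highest of the 6 libraries and Control replicate 3 the lowest, so the CUMS libraries lay inside the range of Control. The log2 fold change was 0.11 with a 95% interval of -0.20 to 0.43 (adjusted p = 0.778 with edgeR), and it was -0.030 without Control replicate 3. Leaving out CUMS replicate 1 gave 0.045, CUMS replicate 3 gave 0.19 and Control replicate 1 gave 0.29.

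Ctsl encodes cathepsin L, an endopeptidase (chromosome 13, 64359337 to 64370890, minus strand), and measured 23.3, 21.0 and 22.6 CPM in CUMS, against 22.8, 21.1 and 18.0 CPM in Control. Control replicate 3 was the lowest library, and the groups overlapped. The log2 fold change was 0.11 with an interval of -0.09 to 0.32 (95%, adjusted p = 0.623 with edgeR), and it was 0.028 without Control replicate 3 and 0.19 without Control replicate 1. The intervals of Ctss and Ctsl both include a rise of the size measured for Ctsd, and that of Ctss also includes an equal fall.

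**Figure D2:**
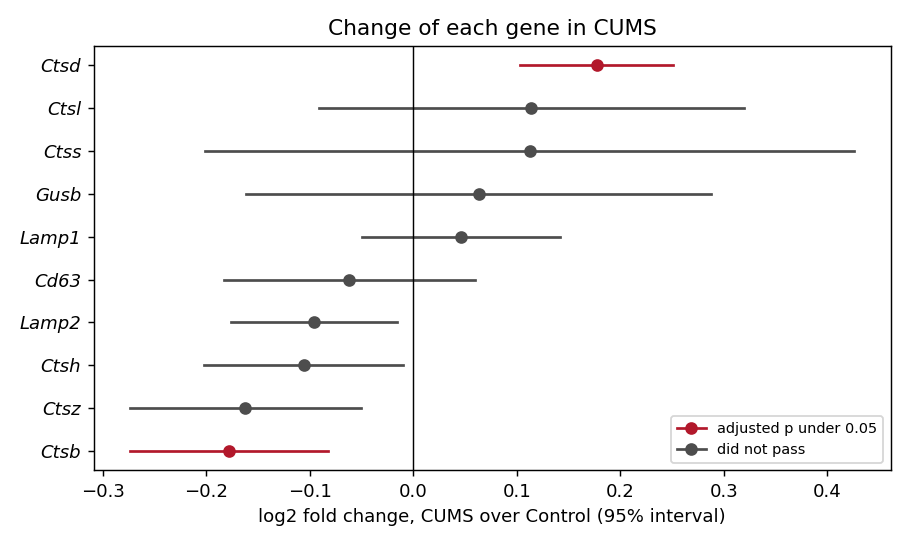
Log2 fold change of CUMS over Control (horizontal axis) for each gene, as point and 95% interval from edgeR; red marks an adjusted p under 0.05. Ctsd (0.18) and Ctsb (-0.18) lie at the ends, and the intervals of Ctss and Gusb are the widest.

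None of the 3 membrane protein genes passed the test. Lamp1, which encodes one of the major glycoproteins of the lysosomal membrane (chromosome 8, 13159161 to 13175338, plus strand), measured 176, 165 and 171 CPM in CUMS, against 171, 163 and 164 CPM in Control. The groups overlapped, and the log2 fold change was 0.05 with a 95% interval of -0.05 to 0.14 (adjusted p = 0.683 with edgeR). In percent, the interval runs from -3.39% to 10.4%, and the log2 fold change ran from 0.024 without CUMS replicate 1 to 0.072 without CUMS replicate 2.

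Lamp2, whose splice forms include the receptor of chaperone-mediated autophagy (chromosome X, 38401357 to 38456454, minus strand), measured 334, 331 and 334 CPM in CUMS, against 349, 359 and 361 CPM in Control. The CUMS libraries differed among themselves by less than any other gene of the set, with a coefficient of variation of 0.532%, and all lay below Control. The log2 fold change was -0.10 ± 0.04 (SE, adjusted p = 0.193 with edgeR). The files give 1 value per gene, so its splice forms could not be separated.

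Cd63 encodes a tetraspanin of late endosomes, lysosomes and azurophil granules (chromosome 10, 128900989 to 128912822, plus strand). It measured 137, 121 and 121 CPM in CUMS, against 135, 134 and 128 CPM in Control. CUMS replicate 1 was the highest of all libraries while the other CUMS libraries were the lowest. The log2 fold change was -0.06 with an interval of -0.18 to 0.06 (95%, adjusted p = 0.657 with edgeR), and -0.12 without CUMS replicate 1 (adjusted p = 0.192), -0.029 without CUMS replicate 2 (0.918) and -0.030 without CUMS replicate 3 (0.916).

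Gusb encodes beta-glucuronidase, a lysosomal glycosidase that is also used as a reference gene in quantitative PCR (chromosome 5, 129989011 to 130003049, minus strand). Its levels were 57.7, 54.9 and 54.9 CPM in CUMS, against 62.3, 43.3 and 54.8 CPM in Control. Control holds both the highest and the lowest library, with a coefficient of variation of 17.8%, against 2.84% in CUMS. The log2 fold change was 0.06 with a 95% interval of -0.16 to 0.29 (adjusted p = 0.835 with edgeR), and it was -0.065 without Control replicate 2. Leaving out CUMS replicate 1 gave 0.041 and Control replicate 1 gave 0.19.

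Ratios within a library do not depend on how libraries are scaled. The ratio of Ctsd to Ctsb was 9.59, 9.98 and 9.57 in CUMS, against 7.61, 7.66 and 7.50 in Control, 1.28 times as high on average. The ratio of Lamp1 to Lamp2 was 0.528, 0.499 and 0.512 in CUMS, against 0.489, 0.452 and 0.454 in Control. Both ratios were higher in every CUMS library than in any Control library, and both pairs were picked after their values had been seen, so no test is given. Ctsd took 59.2%, 59.6% and 58.8% of the summed CPM of the 10 genes in CUMS, against 54.8%, 55.0% and 55.1% in Control. The sum of all 10 was 2625 ± 66.7 CPM in CUMS and 2501 ± 26.1 CPM in Control, while the sum without Ctsd was 1071 ± 29.0 CPM in CUMS and 1126 ± 15.7 CPM in Control (SD, n = 3 each), so the total was higher in CUMS with Ctsd and lower without it.

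**Figure D3:**
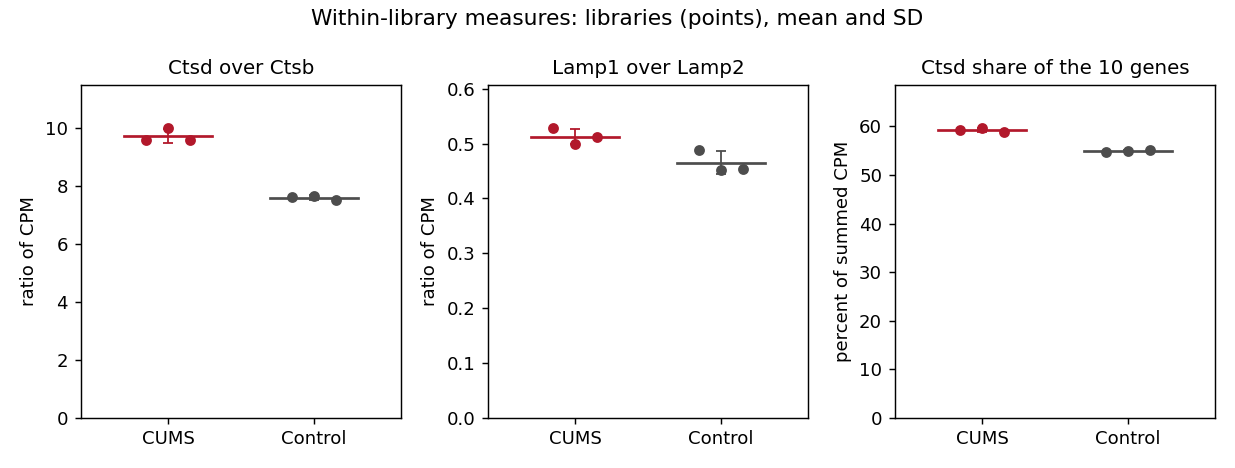
Ratio of Ctsd to Ctsb, ratio of Lamp1 to Lamp2, and Ctsd as a percent of the summed CPM of the 10 genes (vertical axes, from 0), in CUMS (red, left) and Control (grey, right); points are libraries, bars means and whiskers SD. In all 3 panels the CUMS libraries lie above the Control libraries, with Ctsd to Ctsb at 9.57 to 9.98 in CUMS and 7.50 to 7.66 in Control.

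Levels of the genes can be compared only per length of exon sequence. In CUMS the order was Ctsd at 661 RPKM, Lamp1 at 63.9, Lamp2 at 34.9, Cd63 at 34.4, Ctsz at 33.3, Ctsh at 30.3, Ctsb at 26.4, Ctss at 13.4, Gusb at 12.3 and Ctsl at 3.44 RPKM. In Control it was Ctsd at 585, Lamp1 at 61.9, Lamp2 at 37.3, Ctsz at 37.3, Cd63 at 35.9, Ctsh at 32.6, Ctsb at 29.9, Ctss at 12.4, Gusb at 11.8 and Ctsl at 3.17 RPKM. Lamp2, Cd63 and Ctsz lay close together in either group. The distance from Lamp2 to Cd63 was below the SD of Cd63 in CUMS (2.52 RPKM), and that from Lamp2 to Ctsz below the SD of either gene in Control (0.665 and 0.679 RPKM). Ctss and Gusb were closer than the SD of Ctss in both groups (1.39 RPKM in CUMS and 2.76 RPKM in Control). Exon length here is the union over all annotated transcripts, which lowers the value of genes with long rarely used exons.

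Across the 6 libraries, 23 of the 45 pairs of genes had a positive correlation of log2 CPM. Ctsb, Ctsh, Lamp2 and Ctsz went together (Pearson r = 0.94 for Ctsb with Ctsh, 0.90 for Ctsb with Lamp2 and 0.88 for Ctsb with Ctsz), and Ctsd ran against them (r = -0.96 with Ctsz, -0.93 with Lamp2, -0.83 with Ctsb and -0.79 with Ctsh). All pairs share the same libraries, scaling and group difference, so these values describe the 6 libraries and carry no test. The genes whose log2 CPM most resembled that of the sum of the 10 genes, among 6436 others with a mean of at least 10 CPM, were Bak1 (r = 0.99), Nub1 (0.99), Egln3 (0.99), Dclre1b (0.98) and Parp9 (0.98), again over 6 libraries. Of these, Parp9 passed the test, at 59.4 ± 3.76 CPM in CUMS and 49.4 ± 1.89 CPM in Control (SD, n = 3 each; adjusted p = 0.0288 with edgeR).

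The rest of the lysosome was read from 7 lists with 130 entries, of which 125 genes were tested. Of these, 5 rose and 2 fell, a share of 5.6% beside 4.5% of all genes, with a median log2 fold change of -0.00018, beside -0.0073 for all genes. Each list is given below by its counts.

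Of 12 other cathepsins and lysosomal proteases tested, Ctsc fell and none rose. Ctsc encodes cathepsin C, which activates the serine proteases of neutrophil granules. It measured 6.69, 7.07 and 6.03 CPM in CUMS, against 13.2, 12.4 and 13.7 CPM in Control, and fell by 0.99 ± 0.11 (SE) on the log2 scale (adjusted p = 4.6e-04 with edgeR), a call that held without any single library. The most abundant of the list, Ctse (cathepsin E) and Ctsa (the protective protein of lysosomal sialidase and beta-galactosidase), had log2 fold changes of 0.05 and 0.07 (adjusted p = 0.720 and 0.674). The azurophil protease gene Ctsg, at 0.790 ± 0.284 CPM in CUMS and 0.460 ± 0.185 CPM in Control, did not pass (log2 fold change 0.78, 95% interval -0.22 to 1.78, adjusted p = 0.434).

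Of 35 soluble hydrolases and activators tested, 2 rose and 1 fell. Psap, which encodes the precursor of the saposins that present sphingolipids to their hydrolases and is itself cut by cathepsin D, measured 1305, 1321 and 1286 CPM in CUMS, against 1189, 1145 and 1151 CPM in Control. It rose by 0.17 ± 0.03 (SE) on the log2 scale (adjusted p = 0.0164 with edgeR). The ratio of Ctsd to Psap was 1.23, 1.17 and 1.18 in CUMS, against 1.17, 1.19 and 1.19 in Control, and overlapped. Sgsh, the sulfamidase gene of heparan sulfate breakdown, rose by 0.39 ± 0.09 to 17.0 ± 0.825 CPM in CUMS, against 13.0 ± 0.189 CPM in Control (adjusted p = 0.0263). Arsb, the arylsulfatase B gene of dermatan sulfate breakdown, fell by 0.35 ± 0.08 to 24.7 ± 1.64 CPM in CUMS, against 31.4 ± 2.75 CPM in Control (SD, n = 3 each; adjusted p = 0.0326 with edgeR). Man2b1, the alpha-mannosidase gene and with Psap the most abundant of the list, was higher in each CUMS library without passing (log2 fold change 0.10, adjusted p = 0.168). Leaving out 1 library ended the call of Sgsh in all 6 cases (adjusted p 0.0649 to 0.0935), that of Arsb for each library other than CUMS replicate 1 (up to 0.162), and that of Psap for CUMS replicate 2, CUMS replicate 3, Control replicate 2 or Control replicate 3 (up to 0.0887).

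Of 26 other membrane proteins tested, Tpcn2 rose and none fell. Tpcn2 encodes a cation channel of the endolysosomal membrane and measured 116, 131 and 133 CPM in CUMS, against 102, 106 and 100.4 CPM in Control, with no overlap and with CUMS replicate 1 nearest to Control. Its log2 fold change was 0.30 ± 0.06 (SE, adjusted p = 0.0107 with edgeR), and the call ended without CUMS replicate 2, CUMS replicate 3 or Control replicate 3 (up to 0.0714). The most abundant genes of this list, Laptm5 and Cd164, had log2 fold changes of 0.05 and 0.02 (adjusted p = 0.557 and 0.891).

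No gene of the vacuolar proton pump, which acidifies the lysosome, passed edgeR's test. Of its 18 genes, 2 were higher in CUMS and the rest lower (median log2 fold change -0.054). Over all genes tested, 7643 of 15778 were higher in CUMS. Among the 26 other membrane proteins, 21 were higher (median log2 fold change 0.052). These directions were not tested. In edgeR's test 4 pump genes had an unadjusted p under 0.05, beside 16.9% of all genes tested. DESeq2 called 2 pump genes after adjustment, beside 9.61% of all genes it tested, so neither count stands far from the share over all genes. Without CUMS replicate 1, edgeR called 3 pump genes, and 697 of the 16603 genes then tested. The pump subunit gene nearest to the threshold was Atp6v0e, at 63.7 ± 7.48 CPM in CUMS and 76.8 ± 4.38 CPM in Control (SD, n = 3 each; adjusted p = 0.0840 with edgeR), and the most abundant, Atp6v1b2 and Atp6v0c, had log2 fold changes of -0.06 and -0.04. Among 15 genes that sort enzymes to the lysosome, 0 passed with edgeR and 1 with DESeq2, and 1 had an unadjusted p under 0.05 with edgeR. The sorting receptor gene Sort1 was at 571 ± 10.6 CPM in CUMS and 541 ± 23.5 CPM in Control (adjusted p = 0.389), and Ap3d1, an adaptor subunit gene, had a log2 fold change of 0.05.

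Of 16 lysosome regulators tested, Fnip1 and Flcn rose and none fell. Their products, folliculin and its partner, act together on the Rag GTPases that bring the kinase mTOR to the lysosome and set the phosphorylation of Tfeb and Tfe3. Fnip1 measured 135, 143 and 142 CPM in CUMS, against 107, 115 and 118 CPM in Control, and rose by 0.30 ± 0.05 (SE) on the log2 scale (adjusted p = 0.0052 with edgeR), a call that held without any single library. Flcn measured 49.4, 47.2 and 45.6 CPM in CUMS, against 40.3, 39.3 and 38.2 CPM in Control, and rose by 0.27 ± 0.06 (adjusted p = 0.0207). The Flcn call ended without CUMS replicate 1, CUMS replicate 2, Control replicate 2 or Control replicate 3 (up to 0.0849). Tfeb itself was at 68.0 ± 2.66 CPM in CUMS and 62.3 ± 4.35 CPM in Control (SD, n = 3 each; adjusted p = 0.324), and Tfe3 had a log2 fold change of -0.08 (adjusted p = 0.483 with edgeR). Of the cystatins, which inhibit cysteine cathepsins, 3 of 5 were tested outside the stefin A cluster and 0 passed with edgeR or DESeq2, and 1 had an unadjusted p under 0.05 with edgeR. Cst3 measured 144 ± 16.7 CPM in CUMS and 144 ± 5.66 CPM in Control, and Cstb 17.8 ± 2.43 CPM in CUMS and 21.8 ± 2.13 CPM in Control (SD, n = 3 each; adjusted p = 0.996 and 0.188 with edgeR).

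**Figure D4:**
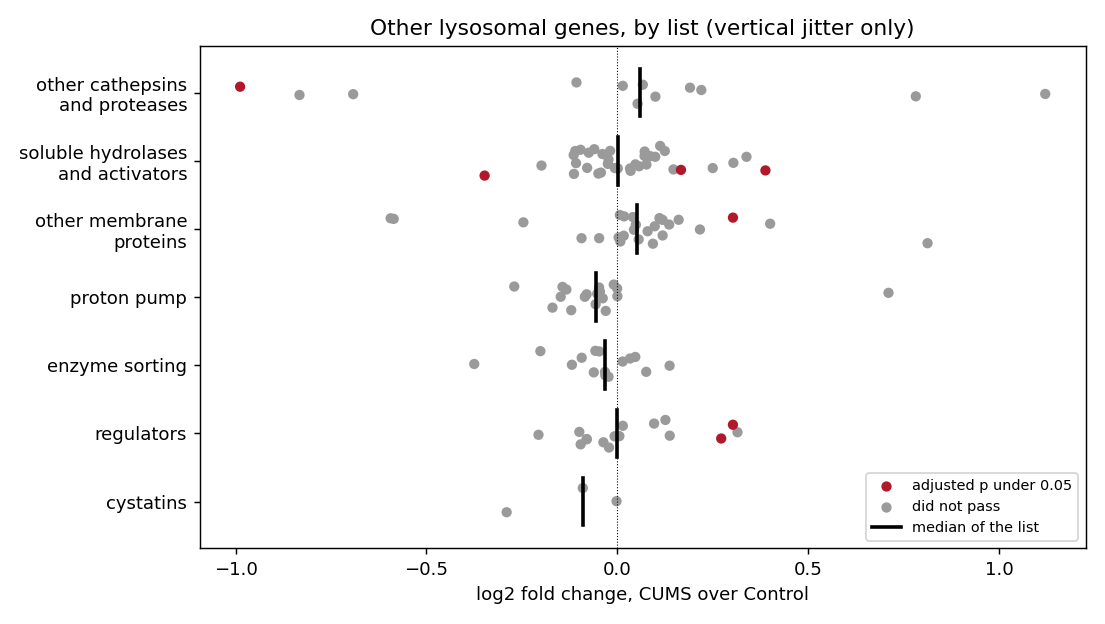
Log2 fold change of CUMS over Control (horizontal axis) for the 125 tested genes of the 7 lists (rows); each point is a gene, red where its adjusted p is under 0.05, and the black bar is the median of the list. The medians lie between -0.09 and 0.06, and Ctsc is the called gene farthest from 0, at -0.99.

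The CACGTG core was present in the promoter windows of 29 of the 102 genes of these lists that the RefSeq table holds (28.4%), against 8.09% of all 27025 genes with a window. This share depends on which genes were listed and says nothing about CUMS or Control. Of the 7 called list genes, Fnip1 and Sgsh had 1 match each, and Ctsc, Psap, Tpcn2, Flcn and Arsb had none in this window.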

How the data were processed

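RNA from bone marrow neutrophils of 3 CUMS and 3 Control samples was sequenced as read pairs of 150 bases, per the labels' protocols. Tools named, per the submitters' processing notes, are HISAT2 2.1, featureCounts 1.6.4, cutadapt 1.16.5, bcl2fastq 2.19 and DESeq2 2.11.40.6, with the mm10 build. The deposited values are whole numbers taken as estimated counts, since the values 4, 8, 12 and 16 were over-represented (1.89, 1.66, 1.41 and 1.38 times the frequency of adjacent values) and 1588 rows carry STRG identifiers. The notes name featureCounts, and which tool gave the deposited values could not be settled. Intervals cover the spread between libraries as edgeR models it.

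All 47561 rows entered edgeR 4.0.16 in R 4.3.3 (filterByExpr, TMM, quasi-likelihood F test, group as the single term), with Benjamini-Hochberg adjustment over the 15778 genes tested and a threshold of 0.05. The test was also tried, after the main fit, on data simulated from the levels and spread of that fit. SE and 95% intervals were derived from the F statistic. Coordinates and exon lengths are from GENCODE M21 (GRCm38), promoter windows from RefSeq (GRCm38.p6). Other genes were named where they passed the threshold or were among the 2 most abundant of a list; genes outside these were picked after their values were seen. The 10 genes and the lists were chosen with earlier results of these data known. Samples were not paired by replicate number in the main fit. Alternatives were RLE scaling, plain totals, other filters, DESeq2 1.42.0, voom (limma 3.58.1) with quality weights, values divided by 4, a replicate block and leaving out each library. Protein motifs were not searched.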

Additional observations from a re-analysis of the deposited data

How the results depend on the processing

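Over 140 recomputed values for the 10 genes (14 alternatives each), 130 kept direction and side of the threshold, 8 lost a call and 2 changed sign. The sign changes were Ctss without Control replicate 3 and Gusb without Control replicate 2, neither called; without a single library their log2 fold changes ran from -0.030 to 0.29 and from -0.065 to 0.19. Of the 10 genes, 2 passed with all libraries, 1 with no filter on low counts, and 0 to 2 without a single library. Of all genes, 710 passed, 462 with no low-count filter, 1146 with DESeq2 and 305 to 697 without a single library.

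Same-numbered libraries had correlations of 0.221, 0.08 and 0.057 between their deviations from the group means. Those of different number ran from -0.206 to 0.142, the highest being CUMS replicate 2 with Control replicate 3. With 3 libraries per group, these values cannot settle whether the numbers pair the samples. With a replicate block 931 of all 15778 genes tested passed, against 710 without it. Of the 10 genes, 2 passed with the block (Ctsd 0.18, Ctsb -0.18), and 2 pump genes passed, against 0 without it.

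With DESeq2 the counts were 6 for soluble hydrolases, 3 for other membrane proteins, 2 for the proton pump and 1 for enzyme sorting, against 3, 1, 0 and 0 with edgeR. Over all genes tested, DESeq2 called 9.61% and edgeR 4.5%. Without a single library the list counts with edgeR ran from 0 to 3 for soluble hydrolases, 0 to 2 for other membrane proteins, 0 to 3 for the pump and 1 to 2 for regulators. The cause of these changes was not tested. Relative to their means, Ctss and Ctsl, both near 20 CPM, had the widest spread within Control among the cathepsins. Their coefficients of variation there were 22.3% and 11.8%.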
